A study of Mus musculus with 29 samples.

Results

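The 10 genes described here encode the core, ATPase and ARID subunits of the BAF (mSWI/SNF) chromatin-remodelling complex: Smarcc1 (BAF155), Smarcc2 (BAF170), Smarca4 (BRG1), Smarca2 (BRM), Smarcb1 (BAF47), Smarce1 (BAF57), Smarcd1 (BAF60A), Smarcd3 (BAF60C), Arid1a (BAF250A) and Arid1b (BAF250B). They were taken by name from the count tables, which list 38355 genes for the untreated RNA libraries and 48709 for the treated ones, and all 10 passed the filter on low counts in every comparison. Smarcc1 and Smarcc2 are the genes deleted in the mutants, so the question for the other 8 members was whether their transcripts changed when the scaffold pair was lost.

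BAF complexes slide and evict nucleosomes with the energy of ATP. Each complex is built around a BAF155 and BAF170 scaffold, carries either BRG1 or BRM as its motor, and is completed by paralogous subunits that exclude each other, so that a switch of paralogue changes the kind of complex a cell holds. In the developing cortex such switches accompany the passage from dividing neural stem cells to neurons, and in cultured cells subunits that lose their scaffold are known to become unstable as proteins, which transcript counts do not measure.

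All tissue came from C57BL/6J embryos at E17.5. The mutants, named dcKO, carry floxed alleles of both scaffold genes (Baf155 fl/fl, Baf170 fl/fl) and an hGFAP-Cre transgene, whose human GFAP promoter acts in late cortical progenitors and reaches the medial pallium before the dorsal and lateral pallium. Cells without Cre activity, including those born before it, blood and vascular cells, therefore keep both genes in dcKO tissue. According to the methods of the study, its controls were animals heterozygous for both floxed alleles that also carried Cre. The untreated pallium gave 4 RNA libraries with the letter C and 3 with the letter M in their names (replicates 2, 3 and 4). The genotype field reads dcKO for the C libraries as well, so the letters were used and the libraries are called C and M. The treated cortex gave 4 libraries each of wild type embryos with vehicle (WT vehicle), dcKO embryos with vehicle (dcKO vehicle) and dcKO embryos with a Wnt inhibitor (dcKO inhibitor). Per the methods the inhibitor was ICG-001, dissolved in DMSO and given daily to the pregnant mothers. H3K27me3 chromatin immunoprecipitation of untreated pallium gave 4 libraries with the letter C and 4 with the letter K.

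Total counts ran from 11946658 reads (M 2) to 28391046 among the untreated libraries and from 12514443 to 26600594 among the treated ones. The scaffold genes disagreed with the label in some mutant libraries. Smarcc1 stood at 95.4% of the C mean in M 2, against 49.8% and 52.6% in M 3 and M 4. Among the treated libraries it stood at 91.1% of the WT vehicle mean in dcKO vehicle 2, and at 80.5% and 94.6% in dcKO inhibitor 1 and 2. These 4 libraries, all above 75% of their control mean, were kept in the main values and left out in a second fit, while dcKO inhibitor 4, at 65.1%, was kept in both. Same-numbered libraries of the untreated and vehicle sets also deviated from their group means together, with r between 0.224 and 0.906 over 12475 genes in all 7 such pairs. Each of these 7 untreated libraries was most like the vehicle library of its own number, so the untreated and vehicle comparisons are not independent repeats of each other.

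Levels of Smarcc1 (CPM, counts scaled to library size by TMM), which encodes the BAF155 scaffold (chr9:110117708-110240178, plus strand, GRCm38), were 247, 264, 269 and 248 in the C libraries and 245, 128 and 135 in M 2, 3 and 4. In the treated set they were 245, 266, 299 and 256 in WT vehicle, 136, 242, 133 and 138 in dcKO vehicle, and 214, 252, 140 and 173 in dcKO inhibitor. M 3 and 4 and dcKO vehicle 1, 3 and 4 thus held between 128 and 138 CPM, below every control, while M 2 fell just under the lowest C library and dcKO vehicle 2 just under the lowest WT vehicle library. The fitted log2 fold change was -0.61 (SE 0.22) for M against C and -0.71 (SE 0.21) for dcKO vehicle against WT vehicle, and neither passed edgeR's quasi-likelihood test (Benjamini-Hochberg adjusted p = 0.251 and 0.289).

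Smarcc2, which encodes the BAF170 scaffold (chr10:128459248-128490482, plus strand), followed the same libraries. Its CPM was 654, 703, 714 and 656 in C, 670, 399 and 398 in M, 834, 716, 664 and 711 in WT vehicle, 439, 692, 425 and 435 in dcKO vehicle, and 644, 695, 416 and 586 in dcKO inhibitor. The groups overlapped through M 2 and dcKO vehicle 2. Fitted log2 fold changes were -0.48 (SE 0.18, edgeR adjusted p = 0.252) for M against C and -0.55 (SE 0.18, adjusted p = 0.337) for dcKO vehicle against WT vehicle. Once the 4 libraries were left out the changes were -0.97 for Smarcc1 and -0.77 for Smarcc2 in the untreated set, and -0.97 and -0.76 in the vehicle set. They are given with no test, since those libraries were left out for their Smarcc1 level. Even then the transcripts of both genes stood between 49.8% and 60.0% of the control mean in M 3 and 4 and dcKO vehicle 1, 3 and 4, counted over all exons and not over the floxed ones alone.

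Prm1, a sperm chromatin gene whose 3 prime end is used as the polyadenylation signal of many transgenes, set the same libraries apart. It stood at 29.2 and 26.2 CPM in M 3 and 4 and at 28.9, 28.2 and 30.8 in dcKO vehicle 1, 3 and 4. In M 2 it stood at 2.60, in dcKO vehicle 2 at 2.49, in dcKO inhibitor 1 to 4 at 2.87, 2.87, 12.1 and 8.21, and in the 8 control libraries at no more than 0.331. In the C libraries it stood at 0.0420 to 0.177 CPM, although the methods of the study describe its controls as carrying Cre. Whether Prm1 counts come from the Cre transgene, and whether the C libraries carried Cre, was not tested. The dcKO vehicle 1 library held counts of both Xist (673 CPM) and the Y-linked Ddx3y (19.0 CPM), which no other library did at such levels.

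**Figure D1:**
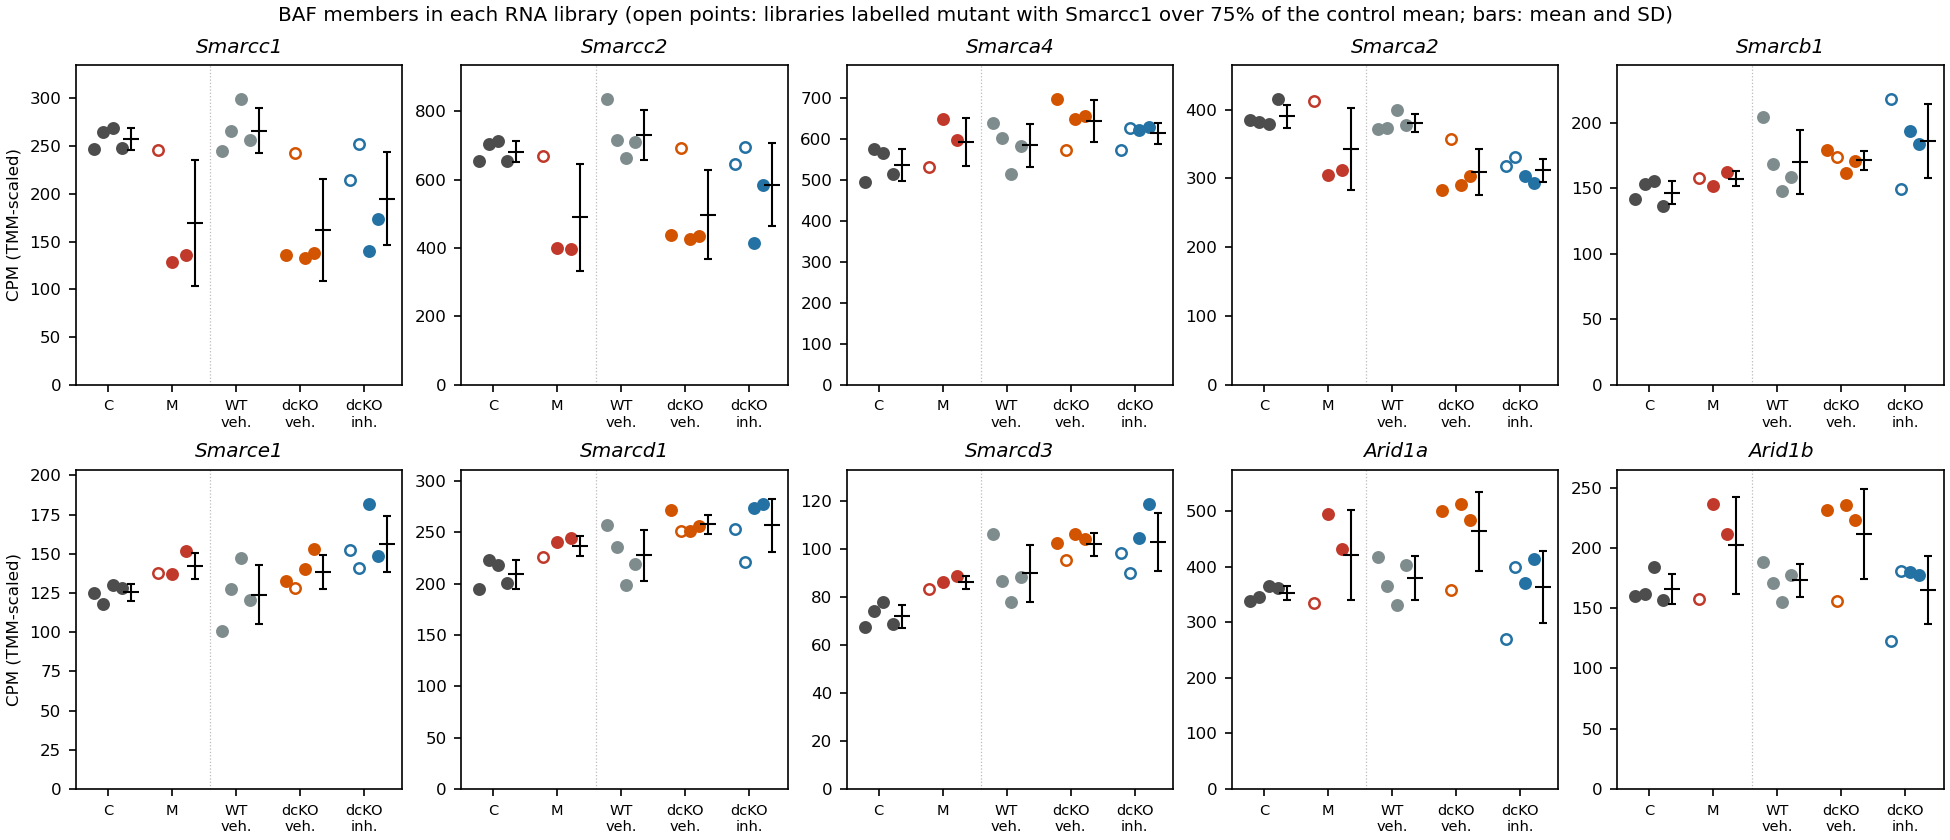
CPM of the 10 members (y axis, starting at 0) in each RNA library, by group on the x axis, with the mean and SD of each group as bars; open points are the 4 mutant libraries with Smarcc1 above 75% of the control mean. For Smarcc1, M 3 and 4 and dcKO vehicle 1, 3 and 4 lie between 128 and 138 while every control lies at 245 or above, and the open points lie between 214 and 252.

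Levels per kilobase were divided by all bases annotated as exon in any transcript, from 4026 in Smarcd1 to 14269 in Smarca2. The order of the members depends on these lengths. By mean CPM in C, Smarca2 (390) and Arid1a (353) stood above Smarcd1 (209). Per kilobase of exon, the scaffold Smarcc2 was the most abundant member in the C libraries (123 ± 5.66 CPM per kb, SD, n = 4), followed by the motor Smarca4 (83.1 ± 6.06) and by Smarcd1 (51.9 ± 3.42). Smarcc1 (32.9 ± 1.42), Arid1a (30.8 ± 1.13) and Smarca2 (27.3 ± 1.17) formed a middle group. Smarce1 (18.9 ± 0.776), Smarcb1 (18.5 ± 1.15), Smarcd3 (14 ± 0.941) and Arid1b (13.2 ± 0.988) were lowest. Neighbours in this order whose libraries overlapped were Smarcc1 and Arid1a, Smarce1 and Smarcb1, and Smarcd3 and Arid1b. In WT vehicle the 6 most abundant members came in the same order, from Smarcc2 at 132 ± 13.1 to Smarca2 at 26.7 ± 0.911 CPM per kb (n = 4). In dcKO vehicle Smarca4 (99.5 ± 8.05) had the higher mean than Smarcc2 (89.7 ± 23.3), with overlapping libraries.

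None of the 8 remaining members passed an adjusted p of 0.05 when all libraries were kept, in the untreated comparison (0.00634% of 15770 genes did), in dcKO vehicle against WT vehicle (0.00611% of 16372), in dcKO inhibitor against dcKO vehicle (0.055%) or in dcKO inhibitor against WT vehicle (0.0977%). At an unadjusted p below 0.01 in edgeR's test, 1 member passed in the untreated comparison (Smarcd3, with 5.46% of all genes), 1 in the vehicle comparison (Smarca2, with 2.85%), none in inhibitor against vehicle (4.65%) and 1 in inhibitor against WT vehicle (Smarca2, with 6.72%). At an unadjusted p below 0.05 the shares of all genes were 16%, 9.46%, 15.8% and 19.8%. DESeq2, run as a check, called Smarcd3 in the untreated comparison, where it called 559 of 14230 genes. It also called Smarca2 in dcKO inhibitor against WT vehicle, where it called 753 of 15985 genes. With the 4 libraries left out, edgeR called Smarca2, Smarcd3, Arid1a and Arid1b in the untreated comparison, beside 12.4% of 16024 genes. It called Smarca2, Arid1a and Arid1b in the vehicle comparison, beside 5.82% of 16815 genes. The p-values set each difference against the spread between these libraries within groups, which was estimated with information shared over genes. Whether each library came from a single embryo was not tested.

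**Figure D2:**
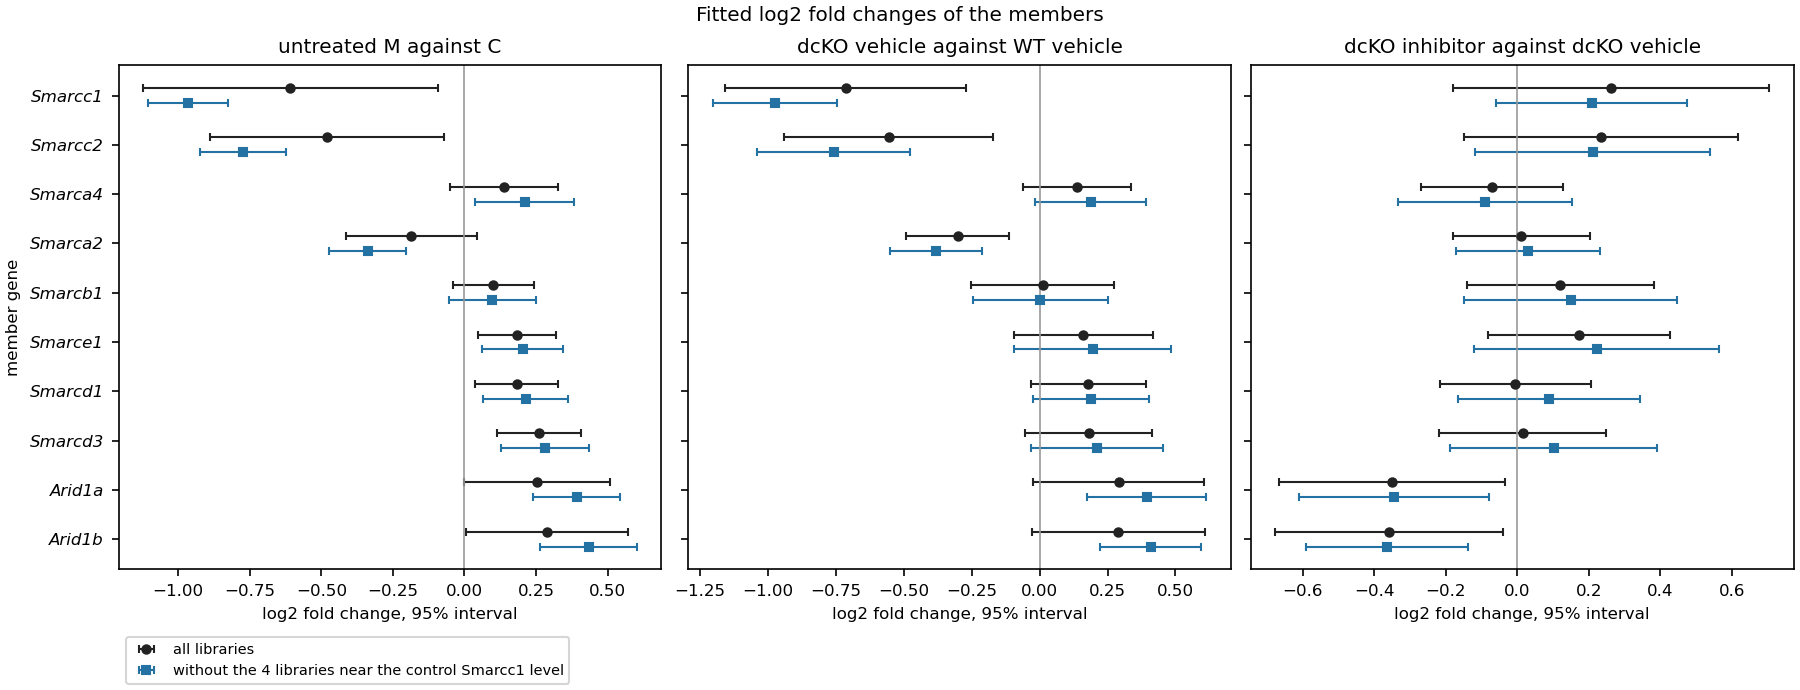
Fitted log2 fold changes (x axis) with 95% intervals for the 10 members (y axis) in 3 comparisons, with all libraries in black and without the 4 libraries near the control Smarcc1 level in blue. Smarca2 lies below 0 and Arid1a and Arid1b above 0 in both genotype comparisons, and only Arid1a and Arid1b among the 10 have intervals that miss 0 with all libraries in the inhibitor comparison; the blue values of Smarcc1 and Smarcc2 follow from how the libraries were left out.

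Smarca2 encodes BRM, the motor that takes the place of BRG1 in part of the complexes and is found more in differentiated cells. It lies at chr19:26605050-26778322 on the plus strand. The bases just before its annotated start are shown because it had the most negative fold change of the remaining members in both genotype comparisons. The H3K27me3 region described below also lies beside these bases. The sequence is chr19:26604910-26605049 of GRCm38.p6 (RefSeq), read 5′ to 3′ on the plus strand, with each CG dinucleotide in capitals.
Smarca2 promoter: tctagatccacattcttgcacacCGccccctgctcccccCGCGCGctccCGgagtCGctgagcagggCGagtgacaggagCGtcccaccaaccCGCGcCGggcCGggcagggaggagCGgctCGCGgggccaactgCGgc
The RefSeq promoter window of 250 bases that holds this stretch has 28 CG dinucleotides, a number reached by 7.61% of 32851 mouse promoters of that length.

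Smarca2 CPM was 385, 382, 379 and 415 in C and 412, 305 and 313 in M. In the treated set it was 372, 374, 400 and 378 in WT vehicle, 283, 358, 291 and 304 in dcKO vehicle, and 318, 332, 304 and 293 in dcKO inhibitor. All 8 treated dcKO libraries were below every WT vehicle library, and M 3 and 4 were below every C library, whereas M 2 lay among the controls. M differed from C by a log2 fold change of -0.19 (95% interval -0.41 to 0.04, edgeR adjusted p = 0.407). For dcKO vehicle against WT vehicle it was -0.30 (-0.49 to -0.11, adjusted p = 0.292), in a comparison where 2.58% of genes were lower in every dcKO vehicle library. Without dcKO vehicle 2 and the other libraries near the control Smarcc1 level it was -0.38 (SE 0.08, edgeR adjusted p = 0.0151), and in the untreated set -0.34 (SE 0.06, adjusted p = 0.00543).

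In the lane that held WT vehicle 1 and 2 with dcKO vehicle 1 and 2, the Smarca2 difference was -0.23 in log2 CPM, and in the lane of replicates 3 and 4 it was -0.39. Between inhibitor and vehicle in dcKO, Smarca2 differed by a log2 fold change of 0.01 (95% interval -0.18 to 0.20). Against WT vehicle the inhibitor-treated dcKO libraries were lower by a log2 fold change of -0.29 (SE 0.09, edgeR adjusted p = 0.127), and 4.02% of genes were lower in every inhibitor library of this comparison. Here dcKO inhibitor 1 and 2, with Smarcc1 at 80.5% and 94.6% of control, stood at 83.4% and 87.1% for Smarca2, below all 4 WT vehicle libraries. With the 4 libraries left out the value was -0.35 (edgeR adjusted p = 0.0381), in a comparison where 7.38% of genes were then called.

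Smarca4 encodes BRG1, the main motor of BAF in neural progenitors (chr9:21616169-21704230, plus strand). Its CPM was 495, 576, 566 and 514 in C, 532, 648 and 597 in M, 640, 604, 516 and 583 in WT vehicle, 697, 573, 650 and 658 in dcKO vehicle, and 575, 628, 624 and 631 in dcKO inhibitor. The groups overlapped in every comparison. Its log2 fold change was 0.14 in both genotype comparisons (95% interval -0.05 to 0.33 untreated, -0.06 to 0.34 vehicle, edgeR adjusted p = 0.453 and 0.721), and -0.07 (-0.27 to 0.13) for inhibitor against vehicle in dcKO. Once the 4 libraries were removed it was 0.21 (0.04 to 0.38, edgeR adjusted p = 0.111) untreated, 0.19 (-0.02 to 0.39, adjusted p = 0.349) with vehicle and -0.09 (-0.33 to 0.15) for the inhibitor.

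The ratio of the 2 motors within a library does not depend on its depth. Its size per kilobase does depend on the exon lengths used, which hold every base annotated as exon in any transcript. These are 6475 bases for Smarca4 and 14269 for Smarca2, and by counts alone the mean log2 ratio in C was 0.46. Per kilobase of exon, Smarca4 exceeded Smarca2 2.84, 3.32, 3.30 and 2.73 times in C and 2.84, 4.69 and 4.21 times in M. The ratio was 3.79, 3.56, 2.84 and 3.4 in WT vehicle, 5.42, 3.53, 4.93 and 4.77 in dcKO vehicle, and 3.99, 4.17, 4.52 and 4.74 in dcKO inhibitor. M 3 and 4 and dcKO vehicle 1, 3 and 4 were above all their controls, and M 2 and dcKO vehicle 2 lay among them. The log2 difference was 0.33 for M against C (two-sided exact permutation p = 0.171) and 0.45 for dcKO vehicle against WT vehicle (exact permutation p = 0.0857), with adjusted p = 0.514 and 0.386 over 9 tests of paralogue ratios. The smallest exact p these group sizes allow is 0.0571 untreated and 0.0286 treated. Leaving out the 4 libraries gave differences of 0.55 and 0.57, with groups that did not overlap, where the smallest possible exact p is 0.133 and 0.0571.

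**Figure D3:**
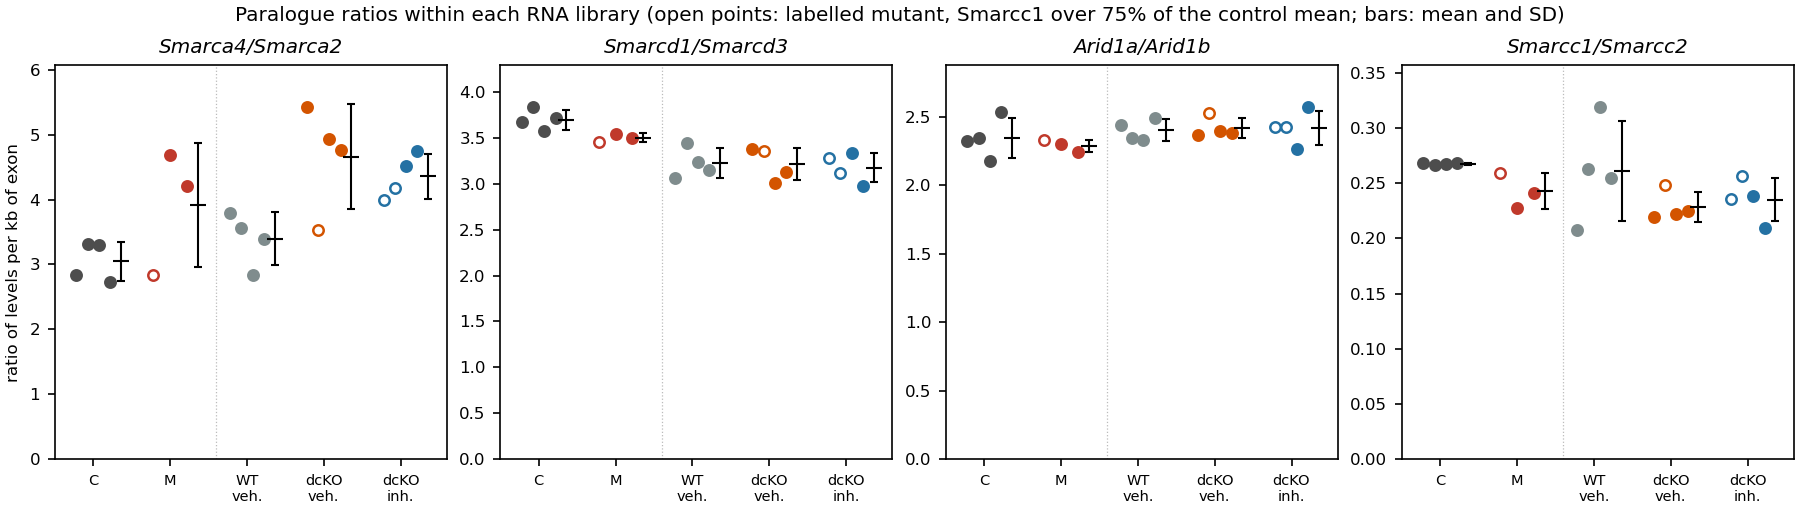
Ratio of the levels per kb of exon of each paralogue pair (y axis, starting at 0) within each RNA library, by group on the x axis, with mean and SD as bars and open points as the 4 mutant libraries with Smarcc1 above 75% of the control mean. Smarca4/Smarca2 reaches 4.21 to 5.42 in the filled M and dcKO vehicle points against 2.73 to 3.79 in controls, while Arid1a/Arid1b stays between 2.18 and 2.57 in all groups.

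Arid1a and Arid1b encode BAF250A and BAF250B, large DNA-binding subunits that exclude each other and define the canonical BAF complex. Arid1a lies at chr4:133679008-133756769 on the minus strand. The 250 bases before its start are shown because it and its paralogue rose by the most among the remaining members in edgeR's test once the 4 libraries were left out. They are chr4:133756770-133757019 of GRCm38.p6 (RefSeq), read 5′ to 3′ on the minus strand, with each CG in capitals.
Arid1a promoter: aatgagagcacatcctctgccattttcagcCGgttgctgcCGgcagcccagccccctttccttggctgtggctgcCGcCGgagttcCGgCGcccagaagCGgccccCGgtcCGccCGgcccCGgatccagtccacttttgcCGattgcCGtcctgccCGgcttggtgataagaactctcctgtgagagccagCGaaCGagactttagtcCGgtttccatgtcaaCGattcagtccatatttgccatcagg
This window holds 18 CG dinucleotides, a number reached by 21.7% of promoters, where the median promoter holds 6.

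Arid1a CPM was 339, 345, 366 and 362 in C, and 335, 496 and 432 in M. It was 418, 366, 331 and 403 in WT vehicle, 500, 358, 514 and 484 in dcKO vehicle, and 271, 399, 371 and 415 in dcKO inhibitor. M 3 and 4 exceeded every C library and dcKO vehicle 1, 3 and 4 exceeded every WT vehicle library, while M 2 was the lowest of its set and dcKO vehicle 2 lay within the controls. The log2 fold change was 0.25 (95% interval -0.00049 to 0.51, edgeR adjusted p = 0.312) untreated and 0.29 (-0.02 to 0.61, adjusted p = 0.569) with vehicle. Without the 4 libraries it was 0.39 in both (SE 0.07, adjusted p = 0.00468 untreated, and SE 0.10, adjusted p = 0.0446 with vehicle).

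Arid1b, at chr17:4994332-5347656 on the plus strand, had CPM of 160, 162, 184 and 157 in C and 158, 237 and 212 in M. It had 188, 171, 155 and 178 in WT vehicle, 232, 156, 235 and 223 in dcKO vehicle, and 122, 181, 180 and 177 in dcKO inhibitor. The same libraries were high as for Arid1a, and again M 2 and dcKO vehicle 2 were not. The log2 fold change was 0.29 in both genotype comparisons (95% interval 0.0044 to 0.57 untreated and -0.03 to 0.61 with vehicle, edgeR adjusted p = 0.307 and 0.578). Without the 4 libraries it was 0.43 (SE 0.08, adjusted p = 0.00467) and 0.41 (SE 0.08, adjusted p = 0.0171). Within lanes, the vehicle differences of Arid1a and Arid1b were 0.11 and 0.08 in the lane that held dcKO vehicle 2, and 0.45 and 0.46 in the lane of replicates 3 and 4.

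Inhibitor and vehicle were then compared within dcKO embryos for the ARID genes. Their log2 fold change was -0.35 (95% interval -0.67 to -0.04, edgeR adjusted p = 0.276) for Arid1a and -0.36 (-0.68 to -0.04, adjusted p = 0.275) for Arid1b, so neither passed. The lowest library was dcKO inhibitor 1, with Arid1a at 71.3% and Arid1b at 70.7% of the WT vehicle mean. The other inhibitor libraries stood between 97.8% and 109% for Arid1a and between 103% and 104% for Arid1b. Without dcKO vehicle 2 and inhibitor 1 and 2 the values were -0.34 (SE 0.12, adjusted p = 0.171) and -0.36 (SE 0.10, adjusted p = 0.107), with 1.02% of genes called. Against WT vehicle the inhibitor group differed by -0.06 (-0.37 to 0.25) for Arid1a and -0.07 (-0.39 to 0.25) for Arid1b.

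The ratio of the 2 ARID genes within a library varied little. Per kilobase Arid1a exceeded Arid1b 2.35 ± 0.145 times in C, 2.29 ± 0.0448 in M, 2.40 ± 0.0772 in WT vehicle, 2.42 ± 0.0725 in dcKO vehicle and 2.42 ± 0.124 in dcKO inhibitor (SD, n = 3 in M and 4 elsewhere). The log2 differences in the ratio were -0.03, 0.01 and 0.00 in the M, vehicle and inhibitor comparisons (exact permutation p = 0.686, 0.80 and 1). Of 11725 genes with a mean count of at least 100 in the treated set, Arid1b had the pattern most like Arid1a over the 12 treated libraries (r = 0.982 of log2 CPM), with r = 0.962 over the 7 untreated ones.

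**Figure D4:**
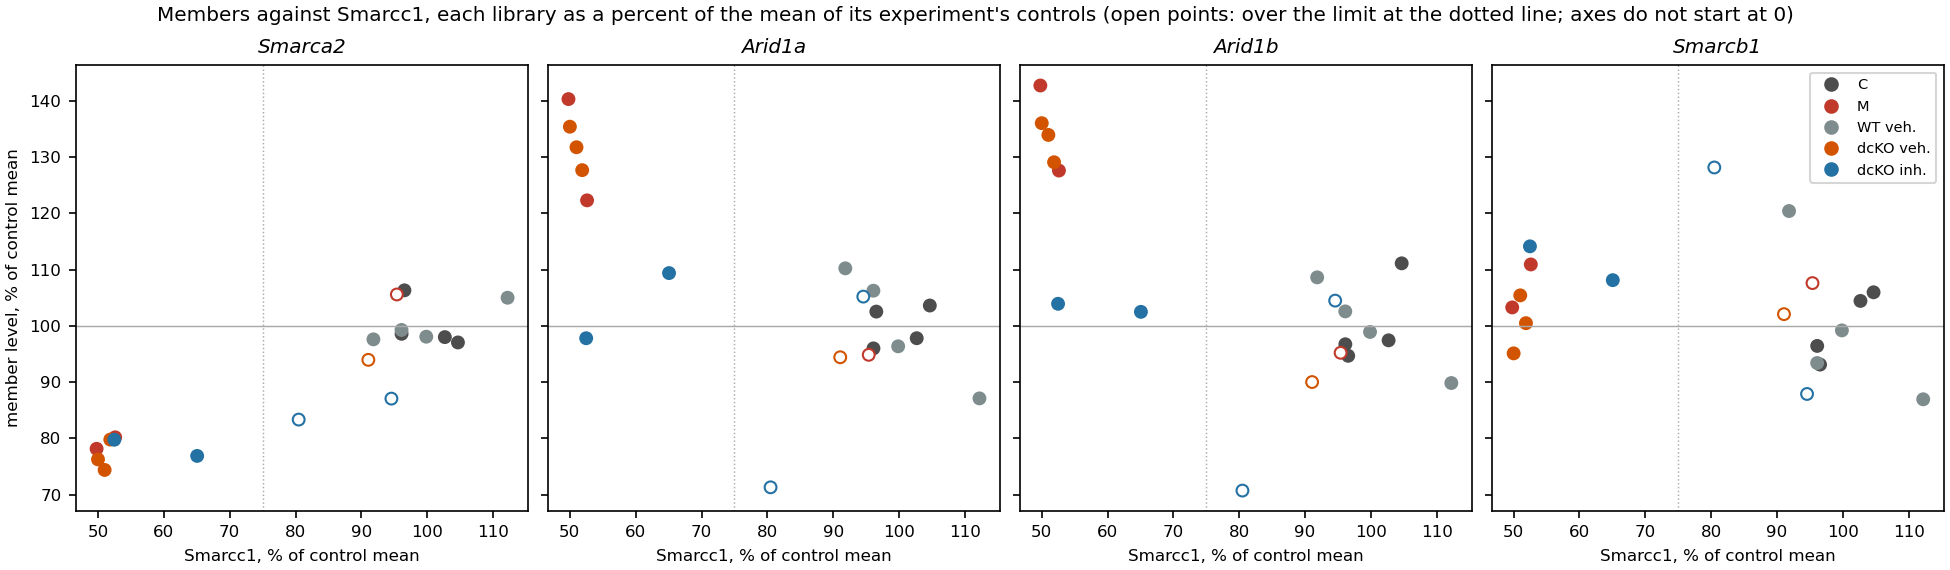
Smarca2, Arid1a, Arid1b and Smarcb1 (y axis, percent of the mean of the control libraries of the same experiment) against Smarcc1 on the same scale (x axis) in the 19 RNA libraries, with the dotted line at 75% and axes that do not start at 0. Smarca2 lies between 74.4% and 80.2% in the M and dcKO vehicle libraries with low Smarcc1, where Arid1a lies between 122% and 140%, and Smarcb1 shows no such separation.

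Smarcd1 and Smarcd3 encode BAF60A and BAF60C, alternative subunits that link BAF to transcription factors. Smarcd1 (chr15:99702129-99713991, plus strand) had CPM of 194, 223, 218 and 200 in C and 226, 241 and 244 in M. Smarcd3 (chr5:24590818-24624411, minus strand) had 67.3, 73.9, 77.6 and 68.5 in C and 83.2, 86.2 and 88.7 in M. For both genes every M library, M 2 included, was above every C library, as held for 6.96% of all genes. The log2 fold change was 0.18 (SE 0.07, edgeR adjusted p = 0.223) for Smarcd1 and 0.26 (SE 0.07, adjusted p = 0.143) for Smarcd3. Without M 2, Smarcd3 passed at 0.28 (SE 0.07, adjusted p = 0.0244) and Smarcd1 did not at 0.21 (SE 0.07, adjusted p = 0.0646).

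With vehicle, Smarcd1 was at 257, 235, 199 and 219 CPM in WT and at 272, 251, 251 and 256 in dcKO, and Smarcd3 at 106, 86.7, 78.0 and 88.3 in WT and at 102, 95.1, 106 and 104 in dcKO. WT vehicle 1 alone made the groups overlap for both genes. The log2 fold change was 0.18 for each (SE 0.10 and 0.11, edgeR adjusted p = 0.604 and 0.652), and without the 4 libraries 0.19 and 0.21 (adjusted p = 0.377 and 0.392). In dcKO inhibitor they were at 253, 221, 274 and 278 and at 98.3, 90.1, 104 and 119 CPM, a log2 fold change of -0.01 and 0.01 from dcKO vehicle (95% interval -0.22 to 0.21 and -0.22 to 0.25). The Smarcd1 to Smarcd3 ratio per kilobase was 3.70 ± 0.108 in C and 3.50 ± 0.0481 in M, a log2 difference of -0.08 that reached the smallest exact permutation p for these groups (p = 0.0571, adjusted p = 0.386). It was 3.23 ± 0.164 in WT vehicle and 3.22 ± 0.176 in dcKO vehicle (log2 difference -0.0041, exact permutation p = 0.914).

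Smarcb1 and Smarce1 have no paralogue among the members. Smarcb1 (chr10:75896769-75921617, minus strand) encodes BAF47, a core subunit that contacts the nucleosome and is known as a tumour suppressor. Its CPM was 142, 153, 156 and 137 in C, 158, 152 and 163 in M, 205, 169, 148 and 159 in WT vehicle, 179, 174, 162 and 171 in dcKO vehicle, and 218, 149, 194 and 184 in dcKO inhibitor. All groups overlapped, with a log2 fold change of 0.10 (95% interval -0.04 to 0.24) untreated, 0.01 (-0.25 to 0.27) with vehicle and 0.12 (-0.14 to 0.38) for the inhibitor. Removing the 4 libraries left the untreated value at 0.10 and the vehicle value at 0.00.

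Smarce1 (chr11:99209047-99231017, minus strand) encodes BAF57, a core subunit with an HMG box that binds DNA. It stood at 125, 118, 130 and 128 CPM in C and at 138, 137 and 152 in M. Every M library was above every C library, as held for 6.96% of all genes, and the log2 fold change was 0.18 (SE 0.06, edgeR adjusted p = 0.202). In the treated set it stood at 101, 127, 147 and 121 in WT vehicle, 132, 128, 141 and 153 in dcKO vehicle, and 152, 141, 182 and 149 in dcKO inhibitor, with overlap in all comparisons. Against WT vehicle the change was 0.16 (-0.09 to 0.42, adjusted p = 0.774) in dcKO vehicle and 0.33 (SE 0.12, adjusted p = 0.167) in dcKO inhibitor. Leaving out the 4 libraries gave 0.20 untreated (SE 0.06, edgeR adjusted p = 0.0663), 0.19 (SE 0.13, adjusted p = 0.55) in dcKO vehicle and 0.42 (SE 0.15, adjusted p = 0.111) in dcKO inhibitor.

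As a group, 7 of the 8 remaining members had a positive and 1 (Smarca2) a negative log2 fold change in both genotype comparisons. Their median was 0.18 untreated and 0.17 with vehicle, where the median of all genes was 0.00. For inhibitor against vehicle 4 were positive and 4 negative with a median of 0.00, beside 0.01 over all genes. In edgeR's test of the interaction between genotype and experiment none of the 10 members passed, and 0% of 15999 genes passed an adjusted p of 0.05 with 0.544% at an unadjusted p of 0.05. The differences between untreated and vehicle effects ran from -0.04 (Arid1a, 95% interval -0.43 to 0.34) to 0.11 (Smarca2, -0.20 to 0.42). This test and its intervals treat the untreated and vehicle libraries as independent, although same-numbered ones deviated together. With those numbers as a block, a fit added after the data were seen, 0 members passed and Smarca2 differed by 0.06 (SE 0.09).

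Among 20 other genes of BAF, PBAF and ncBAF complexes, none passed an adjusted p of 0.05 with all libraries, and their median log2 fold change was 0.01 untreated and 0.02 with vehicle. The smallest p-values belonged to Ss18, which encodes a subunit exchanged for a paralogue when progenitors become neurons. It was higher in every mutant library in both comparisons, at 36, 38.7, 41.3 and 37.8 CPM in C against 47.5, 51.1 and 52.6 in M. The untreated log2 fold change was 0.39 (SE 0.07, edgeR adjusted p = 0.0929), where 6.96% of all genes were higher in every M library. With vehicle it was 0.40 (SE 0.12, adjusted p = 0.316), where 3.08% of all genes were higher in every dcKO vehicle library. Next came Dpf1, a BAF45 subunit of neurons (-0.19 untreated, adjusted p = 0.217), and Bcl11a, a zinc finger protein of cortical neurons that joins BAF (-0.65 with vehicle, adjusted p = 0.356).

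Without the 4 libraries, 4 of the 20 passed in the untreated comparison, namely Bcl11a (-0.92), Ss18 (0.43), Actl6b (0.24), the neuronal actin-related subunit, and Dpf1 (-0.25), beside 12.4% of all genes. With vehicle Bcl11a (-0.97) and Ss18 (0.45) passed, beside 5.82% of all genes. In the comparison of inhibitor with vehicle the smallest p-values were those of Brd9 (0.24, adjusted p = 0.242), a ncBAF bromodomain subunit, and Bicral (-0.17, adjusted p = 0.304), and against WT vehicle those of Dpf3 (-1.01, adjusted p = 0.124) and Smarcd2 (0.28, adjusted p = 0.224). After their removal Dpf3 (-1.40) and Ss18 (0.45) passed against WT vehicle, beside 7.38% of all genes.

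Of 17 ATPase genes of other remodelling families, none passed with all libraries. Chd4, the NuRD motor, had the smallest p in both genotype comparisons (-0.18 and -0.20, edgeR adjusted p = 0.278 and 0.432), followed by Chd6 (0.11, adjusted p = 0.483) untreated and Chd5 (0.28, adjusted p = 0.682) with vehicle. Their median was 0.04 untreated and 0.03 with vehicle. For inhibitor against vehicle it was -0.15, with 16 of 17 negative, beside a median of 0.01 over all genes. The smallest p-values there were those of Ep400 (-0.29, adjusted p = 0.188) and Srcap (-0.81, adjusted p = 0.252), a motor of histone H2A.Z exchange. Against WT vehicle they were those of Chd4 (-0.23, adjusted p = 0.158) and Srcap (-0.80, adjusted p = 0.194). When the 4 libraries were left out, 1 of the 17 passed in the untreated comparison (Chd5, 0.46, edgeR adjusted p = 0.0042), where 12.4% of 16024 genes passed.

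The genes whose log2 CPM was most like that of Smarcc1 over the 12 treated libraries were Paqr8 (r = 0.987), Kcnj10 (0.980) and Cybrd1 (0.976). For Smarcc2 they were Slc12a7 (0.982), Sept8 (0.976) and Prex1 (0.965). For Smarca2 they were Hivep2 (0.965), Opcml (0.945) and Sh3kbp1 (0.941). Over the 7 untreated libraries the r of these 9 genes with their member lay between 0.940 and 0.991. The libraries share genotype and treatment groups, so r is a description with no test.

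Marker genes of other cells were read beside the members, because in bulk tissue fewer cells of a type and less RNA per cell cannot be told apart. Neurons, which fill the cortex at this age, were seen with 5 markers (Tubb3, Rbfox3, Map2, Dcx, Stmn2) that all passed the filter and a summed level of 8131 to 8851 CPM in C. That sum was 7235 to 7870 CPM in M, 6900 to 8663 in WT vehicle, 6454 to 7311 in dcKO vehicle and 6077 to 7375 in dcKO inhibitor. Each of the 5 was lower by fitted value in both genotype comparisons (median -0.23 untreated, -0.22 with vehicle), in the direction of Smarca2. In the untreated fit without M 2, where 4 members and 12.4% of all genes were called, Rbfox3 (-0.53), Stmn2 (-0.40) and Dcx (-0.29) fell. There 4 of the 5 were negative and 1, Tubb3, stood at 0.0013. In the vehicle fit without the 4 libraries, where 5.82% of all genes were called, Stmn2 (-0.40) fell. Progenitor markers summed to 654 to 803 CPM in C, 587 to 765 in M, 694 to 843 in WT vehicle and 599 to 815 in dcKO vehicle. Single progenitor markers differed in opposite directions, with log2 fold changes from -0.75 to 0.51 untreated and from -0.78 to 0.64 with vehicle, none of which passed. Without M 2, Hes5 (0.71), Pax6 (0.51) and Sox2 (0.35) rose and Nes (-1.20) and Mki67 (-0.28) fell, and without the 4 libraries Nes (-1.12) fell with vehicle. GABAergic markers summed to 395 to 487 CPM in C and 324 to 583 in M. Their sum was 412 to 504 CPM in WT vehicle, 340 to 613 in dcKO vehicle and 534 to 718 in dcKO inhibitor. All 4 had a positive fitted value in dcKO vehicle against WT vehicle. They were also all positive for inhibitor against dcKO vehicle (median 0.28) and against WT vehicle (median 0.50), and none passed with all libraries. In the same second fits Dlx1 (0.37) and Dlx2 (0.46) rose untreated, and Dlx1 (0.37) rose with vehicle.

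Choroid plexus markers summed to 4.87 to 127 CPM in C, 4.20 to 8.03 in M, 4.30 to 123 in WT vehicle and 5.12 to 7.97 in dcKO vehicle. The sum was 5.66 to 829 CPM in dcKO inhibitor, where the plexus gene Ttr stood at 803, 147, 448 and 4.03 CPM. The library lowest in Arid1a and Arid1b, dcKO inhibitor 1, was the highest of these in Ttr. In all 19 libraries sums did not exceed 40.8 CPM for microglia, 24.3 for meninges, 106 for endothelium and 109 for red blood cells. The part of these cell types in the differences of the members was not tested.

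H3K27me3, the histone mark laid down by Polycomb complex PRC2 at silenced genes, was read at the members from the peak lists. The 8 libraries together gave 75406 merged regions, of which 4 overlapped a member gene or lay within 2000 bp of a start, at 3 of the 10 genes. Regions seen in 1 library each (C 1) lay in an intron of Smarcc1 (chr9:110171969-110172231), in an intron of Arid1b (chr17:5158696-5159168) and 196 bp from an internal start of Smarca2 (chr19:26729493-26729803). Only 1 region was present in at least 2 libraries, at chr19:26606051-26608024, with its centre 1988 bp downstream of the Smarca2 start shown above, over a further start at 26607270 and a non-coding exon.

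At this Smarca2 region the fold enrichment over input was 4.12 in C 1, 3.27 in K 1 and 5.25 in K 4, and the other 5 libraries had no peak. The mean log2 fold enrichment, with 1-fold where no peak was called, was 0.51 in C and 1.03 in K. The difference of 0.52 (SE 0.84, 95% interval -1.14 to 2.17) did not pass limma's test (adjusted p = 1), in which 0% of 22220 regions passed an adjusted p of 0.05 and 0.221% an unadjusted p of 0.05. The libraries differed widely in depth, since 12.3% to 66.5% of tags were kept after removal of repeated positions and 6674 to 46000 peaks were called. A missing peak is therefore not a measured absence of the mark. The H3K27me3 libraries carry no measure of Smarcc1, so their genotype labels were not checked.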

How the data were processed

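RNA-seq of 19 and H3K27me3 ChIP-seq of 8 mouse E17.5 pallium or cortex samples were used, grouped by the names GEO gives them. STAR (mm10) and featureCounts were used by the authors, and the deposited RNA tables hold a whole-number count for each gene and library, not normalized. The library kit does not mark strand, and the annotation release is not given in the sources used here. For each H3K27me3 library the authors called broad peaks with MACS 2.1.0.20140616 against the pooled input of its letter and deposited each peak's -log10 q-value, its fold enrichment over input and its signal, a pileup of tags. The submitters' processing notes name MACS 2 and mm10. H3K4me2 was not analysed here.

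Counts were fitted with edgeR 4.0.16 (R 4.3.3): TMM, filterByExpr, robust quasi-likelihood test and Benjamini-Hochberg adjustment over all genes, calls at adjusted p below 0.05. A first fit held the 7 untreated libraries and a further fit all 12 treated ones, and a joint fit tested the interaction. Alternatives were DESeq2 1.42.0, its size factors, no filter, replicate and lane blocks, each library left out, and the 4 mutant libraries above 75% of control Smarcc1 left out. Exon lengths, gene positions and starts came from GENCODE M21 on GRCm38, the build of mm10, on which the peaks of 21 of 21 main chromosomes end within the chromosome. The exon length of a gene was the union of the exons of all its transcripts. Merged peak regions seen in 2 or more libraries were tested with limma 3.58.1 on log2 fold enrichment. Paralogue ratios were tested by two-sided exact permutation in Python 3.11.15 with scipy 1.17.1. CPM precision is set by the spread between libraries, with 11946658 to 28391046 counts each. Within groups, the closest pair of libraries differed by a chi-square of 6.36 per degree of freedom, so none was a copy of another in its group. Untreated and vehicle libraries were not compared with each other in this way. The fits were tested on simulated counts with known changes. Of changes of 0.5 in log2, 50 of 100 were called in the untreated comparison and 7 of 98 with vehicle. Of changes of 1 in log2, 85 of 99 and 72 of 99 were called. A member that did not pass may thus still have changed. 1 neuron marker is not reported here and was left out of its list. Promoter sequences matched for 9 of 10 members (all but Smarce1). Named are all members, then of the other BAF genes and other ATPases at most 5 genes that passed or the 2 smallest p-values, and the 3 genes most like Smarcc1, Smarcc2 and Smarca2. The members and lists were chosen with earlier results of these data known. Same-numbered libraries within an experiment did not deviate together throughout (r from -0.311 to 0.403), so the numbers were not used as pairs.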

Additional observations from a re-analysis of the deposited data

Results flagged for a closer look

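Within groups of 4 libraries, 8 of 58 tested sets of values held a library far from the others by Dixon's 95% limit. The sets share libraries and are not independent, so their number cannot be set against chance. Of the 8 sets, 3 had dcKO vehicle 2 as the far library. There Smarcc1 stood at 242 CPM against 133 to 138 in the other dcKO vehicle libraries, Smarcc2 at 692 against 425 to 439, and Arid1b at 156 against 223 to 235. In dcKO inhibitor 1, Smarca4 stood at 575 CPM against 624 to 631 and Arid1b at 122 against 177 to 181. Among the C libraries, Smarca2 stood at 415 CPM in C 4 against 379 to 385, and Arid1b at 184 in C 3 against 157 to 162. At the Smarca2 region, H3K27me3 fold enrichment was 4.12 in C 1, the only C library with a peak there. The other 3 were set to 1 for want of a peak, so any single peak would have stood apart in this way, and this set bears on no comparison with chance.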

How the results depend on the processing

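Counts of genes that passed among the 8 remaining members, all 0 with every library, depended on single libraries. They ranged from 0 to 4 over fits that each left out 1 library in the untreated comparison (4 without M 2, a fit that called 1994 of 16024 genes) and from 0 to 1 with vehicle (1 without dcKO vehicle 2, a fit that called 562 of 16526). For the 20 other BAF genes the ranges were 0 to 4 untreated (4 without M 2), 0 to 1 with vehicle (1 without dcKO vehicle 2), 0 to 1 for inhibitor against vehicle and 0 to 1 for inhibitor against WT vehicle (1 without inhibitor 2). Leaving out the 4 libraries near the control Smarcc1 level, a choice listed at the start with their Smarcc1 levels already known, gave 4, 3 and 1 members and 4, 2 and 2 other BAF genes in the untreated, vehicle and inhibitor against WT comparisons. DESeq2 called 1 member and 1 other BAF gene in the untreated comparison, and 1 and 1 for inhibitor against WT vehicle. It called 559 of 14230, 118 of 18930, 334 of 17752 and 753 of 15985 genes in all in the 4 comparisons. With no filter on low counts 1 other BAF gene passed untreated, in a fit that called 154 of 26057 genes. The cause of these differences was not tested. With the replicate number as a block, 0 members passed in each of the 4 comparisons and 1 other BAF gene passed for inhibitor against WT vehicle. The block called 0, 5, 7 and 189 genes in all, and the H3K27me3 difference at Smarca2 was 0.52 (SE 0.57) with it. Same-numbered libraries correlated at -0.311 to -0.0330 untreated, -0.0125 to 0.382 with vehicle, -0.0980 to 0.199 for inhibitor against vehicle, -0.176 to 0.403 for inhibitor against WT vehicle and -0.323 to 0.579 for H3K27me3, so the numbers were not taken as pairs.

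None of the log2 values that changed sign had passed a test. For inhibitor against vehicle Smarca2 was -0.0019 with no filter, Smarcd3 -0.054 with lane as a block and Smarcd1 0.089 without the 4 libraries. Without those libraries Arid1a and Arid1b were 0.050 and 0.045 for inhibitor against WT vehicle, and the Arid1a to Arid1b ratio with vehicle was -0.013. For the untreated effect minus the vehicle effect, DESeq2 size factors gave 0.0019 for Smarca4 and 0.0029 for Smarcd1, and no filter gave 0.011 for both and 0.0068 for Arid1b. A block of replicate numbers across both experiments, added after seeing the data, gave -0.00047 for Smarcc2, 0.028 for Smarca4, -0.017 for Smarce1, 0.015 for Smarcd1 and 0.035 for Arid1b. Without the 4 libraries the values were -0.00099 for Smarcc1, -0.027 for Smarcc2, 0.013 for Smarca4, and 0.015 for Smarcd1 and for Arid1b. Leaving out 1 library at a time, this difference ranged from -0.26 to 0.37 for Smarcc1, -0.23 to 0.27 for Smarcc2, -0.078 to 0.063 for Smarca4, -0.045 to 0.19 for Smarca2, -0.013 to 0.14 for Smarcb1, -0.082 to 0.11 for Smarce1, -0.061 to 0.048 for Smarcd1, -0.012 to 0.13 for Smarcd3, -0.18 to 0.092 for Arid1a and -0.14 to 0.13 for Arid1b. Over the same fits inhibitor against vehicle ranged from -0.029 to 0.090 for Smarca2, -0.046 to 0.059 for Smarcd1 and -0.062 to 0.073 for Smarcd3. Inhibitor against WT vehicle ranged from -0.13 to 0.058 for Arid1a and -0.12 to 0.051 for Arid1b, and the vehicle comparison from -0.048 to 0.11 for Smarcb1. The log2 Arid1a to Arid1b ratio ranged from -0.067 to 0.0050 untreated, -0.013 to 0.026 with vehicle and -0.028 to 0.033 for the inhibitor. The log2 Smarcd1 to Smarcd3 ratio ranged from -0.028 to 0.028 with vehicle and -0.050 to 0.013 for the inhibitor. At the Smarca2 region the H3K27me3 difference was 0.088 with peaks at a stricter q-value, and ran from 0.059 to 1.03 without 1 library each. Of the values for single genes and paralogue ratios, 926 kept direction and call, 82 changed sign, 26 passed only under the alternative and 24 moved.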
